A study of Mus musculus with 22 samples.

Results

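Genes of adrenergic and cyclic AMP signalling were examined in the inguinal white fat of mice, which lies under the skin and gains heat-producing beige adipocytes on cold exposure. The set held 66 of the 22180 genes measured, taken by symbol from the adrenergic receptor, adenylyl cyclase (Adcy), phosphodiesterase (Pde), protein kinase A (Prkac and Prkar) and regulator of G protein signalling (Rgs) families. The rule used symbols and no measured value. There were 2 receptor genes (Adra1b and Adra2c), 9 cyclases, 26 genes named as phosphodiesterases, 6 kinase A subunits and 23 Rgs genes, on 70 probe sets. Where a gene had more than 1 probe set, the one with the highest mean over all arrays stood for it. Other adrenergic receptors were not analysed here, so the adrenergic label rests on both alpha receptor genes alone. All members were kept whatever their signal, and 27 of them lay in the dimmest 50% of genes.

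The mice were males of 3 to 4 months, wild type or PPARα-/-, which lack the nuclear fatty acid receptor PPARα, on a C57Bl/6J background after more than 10 generations of backcrossing. All were fed chow and spent 5 weeks at 28 °C, which is thermoneutral for mice. They then either stayed at 28 °C or passed 1 week at 21 °C and 10 days at 5 °C. Whole-transcript arrays were run on 1 mouse each, 6 per genotype at 28 °C and 5 per genotype at 5 °C. The comparisons ask how the pathway's transcripts differ with cold, and whether that response differs without PPARα.

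Values are log2 signals per gene, so a difference of 1 is a 2-fold change. Levels are compared between groups for the same gene and not between genes, since probe sets differ in brightness. Correlations between arrays ran from 0.966 to 0.990, and the number of arrays limits the precision. All 7 adipocyte markers were measured, at a summed log2 level of 14.5 to 14.8 over the arrays. In the cold, averaged over both genotypes, 2 of them fell by the test used below (Adipoq −0.32 and Lep −0.74) and 0 rose. Ucp1, the uncoupling protein of thermogenic fat, gave 4.50 to 6.47 at 28 °C against 12.3 to 12.6 at 5 °C. The genotype labels could not be checked on Ppara itself: its probe set, of unstated position relative to the deletion, gave 6.13 to 6.98 at 5 °C in wild-type arrays and 5.77 to 7.10 in null arrays. In whole fat, fewer cells of a type and less RNA per cell cannot be told apart.

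Noradrenaline released in fat acts on receptors coupled to heterotrimeric G proteins. Stimulatory G proteins activate adenylyl cyclases, which make cyclic AMP, and inhibitory G proteins restrain them. Cyclic AMP releases the catalytic subunits of kinase A from their regulatory subunits, and the kinase then phosphorylates lipolytic proteins and transcription factors such as CREB, which binds the cyclic AMP response element. Phosphodiesterases degrade the messenger, and Rgs proteins shorten G protein signals by speeding GTP hydrolysis.

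Promoter windows from RefSeq (GRCm38.p6, 250 bases before to 50 after a start site) were matched to 50 of the 66 members. The full response element, TGACGTCA, occurred in the windows of 2.03% of all genes (549 of 27025) and of 1 member, Prkar1a. Its core, TGACG on either strand (CGTCA on the other; it also occurs inside the full element), was present in 20 of 50 members (40%) against 23% of all genes. Counted by window, since members had more windows per gene, the shares were 23.4% and 20.8%. The core was found in 4 of 8 members with a window that rose in the cold, in 1 of 7 that fell (Adcy7) and in 15 of 35 that did not pass the test. These matches describe letters in a window and say nothing of binding. The windows of the 4 rising genes that hold the core, and of Prkar1a with the full element, are shown 5′ to 3′ with every match to the core or the full element in capitals:
Prkaca (catalytic subunit, chr8:83972728-83973027, plus strand): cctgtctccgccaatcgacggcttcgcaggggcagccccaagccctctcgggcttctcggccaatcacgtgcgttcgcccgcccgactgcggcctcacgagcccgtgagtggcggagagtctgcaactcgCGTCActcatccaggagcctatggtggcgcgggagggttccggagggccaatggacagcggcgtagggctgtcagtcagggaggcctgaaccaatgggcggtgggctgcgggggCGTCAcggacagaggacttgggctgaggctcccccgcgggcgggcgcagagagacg
Pde4a (phosphodiesterase, chr9:21183851-21184150, plus strand): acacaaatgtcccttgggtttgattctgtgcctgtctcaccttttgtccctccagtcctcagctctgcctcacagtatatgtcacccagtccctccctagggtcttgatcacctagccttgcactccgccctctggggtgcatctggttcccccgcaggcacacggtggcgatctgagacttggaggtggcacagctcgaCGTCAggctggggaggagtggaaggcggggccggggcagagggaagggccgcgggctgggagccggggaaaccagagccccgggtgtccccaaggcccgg
Pde8a (phosphodiesterase, chr7:81213015-81213314, plus strand): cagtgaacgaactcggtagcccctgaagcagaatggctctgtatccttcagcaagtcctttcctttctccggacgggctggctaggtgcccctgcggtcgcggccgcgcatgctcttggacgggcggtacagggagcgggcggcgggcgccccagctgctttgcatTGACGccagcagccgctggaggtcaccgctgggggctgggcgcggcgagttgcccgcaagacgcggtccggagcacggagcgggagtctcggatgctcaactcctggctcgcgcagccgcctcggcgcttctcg
Rgs2 (regulator of G protein signalling, chr1:144004100-144004399, minus strand): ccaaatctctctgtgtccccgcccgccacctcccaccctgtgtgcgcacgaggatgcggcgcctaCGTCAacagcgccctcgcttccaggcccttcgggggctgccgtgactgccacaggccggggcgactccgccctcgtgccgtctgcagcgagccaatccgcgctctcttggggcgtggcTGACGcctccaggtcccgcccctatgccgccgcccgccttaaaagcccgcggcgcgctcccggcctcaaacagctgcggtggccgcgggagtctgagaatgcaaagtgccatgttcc
Prkar1a (regulatory subunit, chr11:109650699-109650998, plus strand): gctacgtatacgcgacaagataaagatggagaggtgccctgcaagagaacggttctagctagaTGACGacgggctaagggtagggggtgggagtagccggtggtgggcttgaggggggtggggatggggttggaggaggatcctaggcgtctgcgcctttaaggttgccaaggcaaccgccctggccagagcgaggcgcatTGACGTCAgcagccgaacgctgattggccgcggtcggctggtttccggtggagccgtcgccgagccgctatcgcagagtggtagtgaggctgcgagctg

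In the cold, a few members rose and about as many fell in the average over both genotypes. The largest increases were those of Adcy10, the soluble adenylyl cyclase, and Rgs7, followed by Pde4a, the kinase A subunits Prkar2b and Prkaca, and Pde12. The larger decreases were those of Rgs18, Rgs10, Pde11a and Adcy2. With limma and Benjamini-Hochberg adjustment over all genes, 12 of 66 members passed an adjusted p of 0.05 in wild-type mice (18.2%, 7 higher and 5 lower), against 16.7% of all genes (8.35% higher and 8.3% lower). In null mice 14 passed (21.2%, 9 higher and 5 lower), against 13.2% of all genes (6.88% higher and 6.33% lower). The average over both genotypes gave 19 (28.8%, 9 higher and 10 lower), against 24.8% (11.7% higher and 13.1% lower). The share of members called was thus within 5 percentage points of the background in wild-type mice and in the average, and above it in null mice. The null count depended on the setting. It was 8 with only the null groups fitted (all genes: 2254) and 9 with the replicate number as a block (2683). At an unadjusted p under 0.001 it was 7 (1799), so an excess in null mice is not established. The median absolute change of members and of all genes was 0.12 and 0.16 in wild-type mice, 0.19 and 0.14 in null mice, and 0.13 and 0.13 in the average. With each array's median subtracted, which shifts the average changes by 0.054, the calls split 11 higher and 8 lower in the average and 11 higher and 1 lower in null mice. Over all genes the same scaling put 63.6% of the calls in the average and 64.6% of those in null mice on the higher side. Of the calls within a genotype, 7 were shared in direction, 5 were made in wild-type and 7 in null mice alone, and 0 were opposite. These counts were not made for all genes, so the agreement in direction is not shown to be particular to the members. The average changed by more than 1 log2 unit for 2 members, Adcy10 and Rgs7, and this was not counted for all genes either. The arrays at 5 °C lay above all those at 28 °C in both genotypes for 6 members (Adcy10, Rgs7, Pde4a, Prkar2b, Prkaca and Pde12) and below them in both for 0, against 3.72% and 2.33% of all genes. Within wild-type mice alone, 7 members lay above and 2 below without overlap (all genes: 6.27% and 5.53%), and within null mice 6 and 2 (5.05% and 4.06%).

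**Figure D1:**
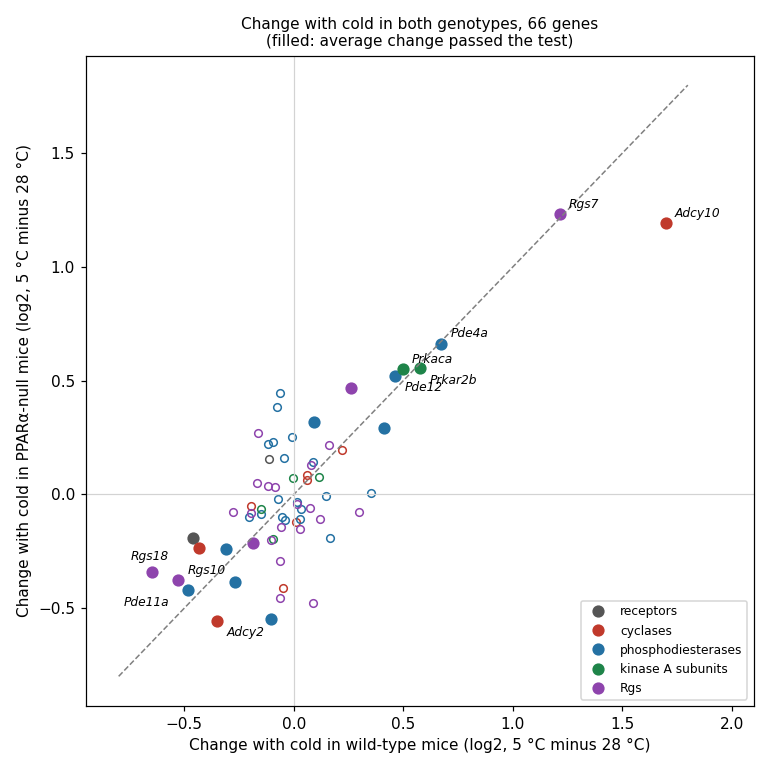
Change with cold (log2, 5 °C minus 28 °C) of each of the 66 genes in wild-type mice (x axis) and null mice (y axis), coloured by family and filled where the average change passed the test; the dashed line marks equal changes. Rgs7 (1.21 and 1.23) and Adcy10 (1.70 and 1.20) stand at the upper right, and most genes lie near 0.

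Of the receptors, Adra1b, an alpha-1 receptor that couples to Gq and calcium rather than to cyclic AMP, fell in wild-type mice, and Adra2c, an alpha-2 receptor that couples to inhibitory G proteins, did not pass the test. Adra1b signal was 3.93 to 4.34 in wild-type mice at 28 °C (median 4.15) and 3.97, 3.63, 3.47, 3.56 and 3.73 at 5 °C. In null mice it was 3.86 to 4.15 at 28 °C (median 4.06) and 3.99, 3.89, 3.63, 3.99 and 3.69 at 5 °C. In each genotype the highest array at 5 °C overlapped the lowest at 28 °C. The change was −0.46 (SE 0.10, adjusted p = 0.00221) without the deletion and −0.19 (SE 0.10, adjusted p = 0.256) with it, with an average of −0.33 (adjusted p = 0.00136). The difference of both changes, 0.27 (95% interval −0.03 to 0.56), did not pass the test (adjusted p = 0.965). For Adra2c, which was 2.57 to 3.60 over all arrays, the average change was 0.02 (95% interval −0.23 to 0.27). Both genes lay in the dimmest 50%.

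Among the 9 cyclases, 1 rose and 2 fell in the average (33.3% called, against 24.8% of all genes). Adcy10 differs from the others in being a soluble enzyme that is activated by bicarbonate and not by G proteins. Its signal in wild-type mice was 2.92 to 3.71 at 28 °C (median 3.40) and 5.49, 4.66, 4.64, 4.98 and 5.58 at 5 °C. In null mice it was 3.00 to 3.69 at 28 °C (median 3.18) and 4.82, 3.74, 4.58, 4.64 and 4.58 at 5 °C. Every cold array exceeded every thermoneutral array of its genotype, although null replicate 2 (3.74) did so narrowly. The increase was 1.70 (SE 0.20, 3.25-fold, adjusted p = 2.68e-06) in wild-type and 1.20 (SE 0.20, 2.29-fold, adjusted p = 0.000231) in null mice. At 5 °C the null mean was 0.60 lower than the wild-type mean (95% interval −1.04 to −0.16), which did not pass the test (adjusted p = 0.552). Adcy10 nonetheless lay in the dimmest 50% of genes.

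The cyclases that fell were membrane enzymes. Adcy7, which is abundant in blood and immune cells, was 6.00 to 6.87 in wild-type mice at 28 °C (median 6.30) and 6.04, 5.68, 5.88, 6.05 and 6.00 at 5 °C, with 2 cold arrays inside the thermoneutral range. In null mice it was 6.27 to 6.80 at 28 °C and 5.94, 6.34, 6.46, 6.07 and 6.01 at 5 °C. The decrease was −0.43 (SE 0.13, adjusted p = 0.0265) in wild-type mice, the change in null mice was −0.24 (SE 0.13, adjusted p = 0.294), and the average was −0.33 (adjusted p = 0.0102). The wild-type call was lost without wild-type 5 °C replicate 2 (adjusted p = 0.0818) or 3 (0.0517), without wild-type 28 °C replicate 2 (0.0513) or 3 (0.0669), or with only the wild-type groups fitted (0.0507). Adcy2 passed in the average alone, at −0.45 (SE 0.15, adjusted p = 0.0313). Its cold arrays were 3.75, 4.98, 4.40, 4.40 and 3.87 in wild-type and 4.67, 4.18, 4.17, 3.38 and 3.74 in null mice, against 4.27 to 4.97 over both genotypes at 28 °C. The highest value, of wild-type 5 °C replicate 2, came from the array with the highest mean of the 13 skeletal muscle markers (9.70, range over arrays 5.59 to 9.70). With the muscle and lymphocyte marker means as covariates, the average Adcy2 change was −0.45 (adjusted p = 0.0088). Its call was lost with array medians subtracted (adjusted p = 0.0538) and with the replicate number as a block (0.0771). It was also lost without null 5 °C replicate 4 (0.0682) or 5 (0.0612), null 28 °C replicate 1 (0.0524) or 6 (0.054), wild-type 5 °C replicate 1 (0.0683) or 5 (0.0651), or wild-type 28 °C replicate 1 (0.0525).

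Adcy8, a calcium-stimulated cyclase, passed in null mice alone (−0.41, SE 0.13, adjusted p = 0.0479). Its signal, 2.37 to 3.32 over all arrays, lay near the lower quartile of the arrays (2.94 to 3.05). The call held on leaving out single arrays only for null 5 °C replicate 2, null 28 °C replicates 2 and 5, wild-type 5 °C replicates 3 and 5 and wild-type 28 °C replicate 4, and the other 16 omissions gave adjusted p up to 0.132. It was also lost with array medians subtracted (0.0772), with trended and robust variances (0.0615), with array weights (0.0653) and with only the null groups fitted (0.0627). So it was with the replicate number as a block (0.0543) and with the muscle and lymphocyte means as covariates (0.068). The remaining 5 cyclases did not pass in any cold comparison, and their average changes ran from −0.12 (Adcy9) to 0.21 (Adcy5). Adcy5 and Adcy6, the calcium-inhibited cyclases, had average changes of 0.21 (95% interval −0.01 to 0.43) and 0.07 (−0.03 to 0.17).

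**Figure D2:**
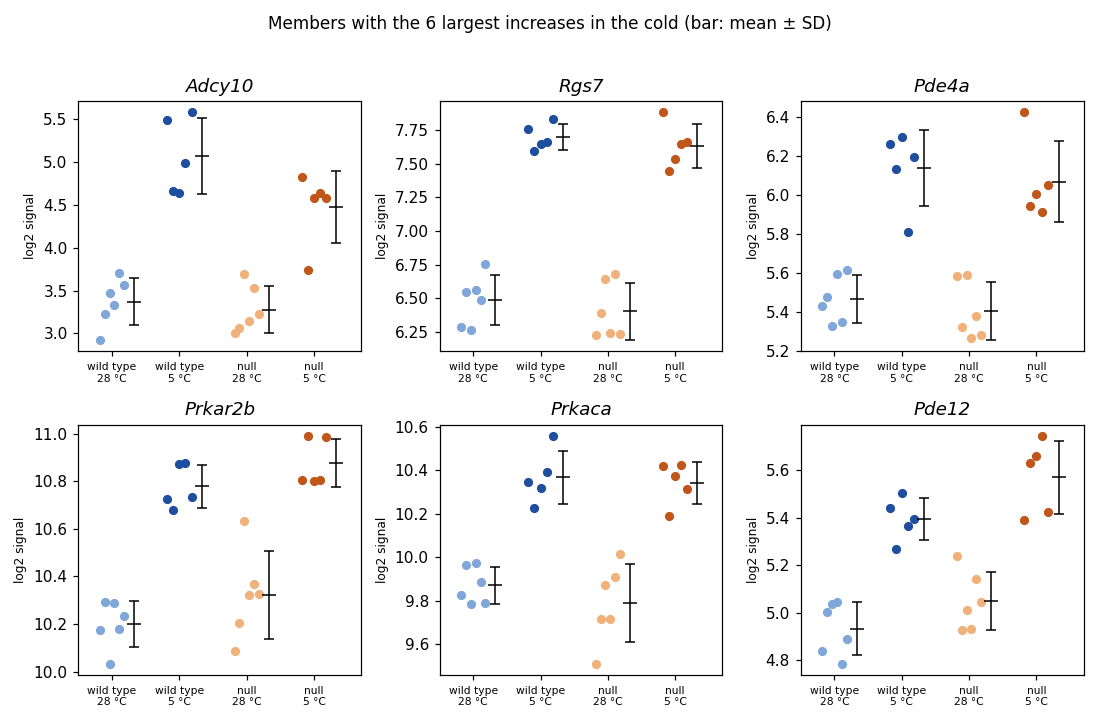
Log2 signal of the 6 genes with the largest average increases, 1 point per mouse in the 4 groups (6 mice at 28 °C and 5 at 5 °C per genotype), with mean ± SD beside the points. In each panel all cold arrays of a genotype lie above all its 28 °C arrays, by the least for Adcy10 in null mice, where the lowest cold array is 3.74 and the highest 28 °C array 3.69.

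Of the 26 genes named as phosphodiesterases, 4 rose and 4 fell in the average (30.8% called, against 24.8% of all genes). The increases were those of Pde4a, Pde12, Pde8a and Pde3b. The decreases were in the cyclic GMP enzymes Pde5a and Pde9a, the dual enzyme Pde11a and the cyclic AMP enzyme Pde7a. Pde4a, of the cyclic AMP-specific family that rolipram inhibits, was 5.33 to 5.62 in wild-type mice at 28 °C (median 5.46) and 6.26, 6.13, 6.30, 5.81 and 6.20 at 5 °C. In null mice it was 5.26 to 5.59 at 28 °C (median 5.35) and 6.43, 5.94, 6.01, 5.91 and 6.05 at 5 °C. The groups did not overlap in either genotype, and the increases were 0.67 (SE 0.10, 1.59-fold, adjusted p = 6.33e-05) and 0.66 (SE 0.10, 1.58-fold, adjusted p = 9.3e-05). Pde12 shares the family's name, but it is a mitochondrial enzyme that trims adenosine tails of RNA and cleaves oligoadenylates. It rose from 4.79 to 5.05 at 28 °C to 5.44, 5.27, 5.51, 5.37 and 5.40 at 5 °C in wild-type mice, a change of 0.46 (SE 0.08, adjusted p = 0.000247). In null mice it rose from 4.93 to 5.24 to 5.39, 5.63, 5.66, 5.75 and 5.43, a change of 0.52 (SE 0.08, adjusted p = 8.18e-05).

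Pde8a, a high-affinity cyclic AMP enzyme, was 6.91 to 7.38 at 28 °C and 7.78, 7.48, 7.53, 7.50 and 7.64 at 5 °C in wild-type mice, without overlap. In null mice the ranges overlapped, at 7.03 to 7.51 and 7.59, 7.32, 7.46, 7.68 and 7.67. The change was 0.41 (SE 0.10, adjusted p = 0.00634) for wild-type mice and 0.29 (SE 0.10, adjusted p = 0.0626) for null mice, with an average of 0.35 (adjusted p = 0.00074). Pde3b, through which insulin lowers cyclic AMP in adipocytes, passed in null mice at 0.32 (SE 0.08, adjusted p = 0.0131), with means of 10.01 ± 0.15 (SD, n = 6) at 28 °C and 10.33 ± 0.14 (n = 5) at 5 °C. In wild-type mice its change was 0.09 (SE 0.08), and the average of 0.20 (adjusted p = 0.0135) was 0.14 (adjusted p = 0.102) after quantile normalization over the genes tested, which also ended the null call (adjusted p = 0.0521), as did fitting only the null groups (0.0571). Pde1c, a calcium- and calmodulin-stimulated enzyme, passed in null mice alone (0.44, SE 0.13, adjusted p = 0.0206), at a signal of 2.24 to 3.10 that lay mostly below the arrays' lower quartile. Without null 5 °C replicate 2 its adjusted p was 0.0673.

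Pde11a, which hydrolyses cyclic AMP and cyclic GMP, was 6.09 to 6.75 at 28 °C and 5.99, 5.71, 6.11, 5.75 and 5.81 at 5 °C in wild-type mice. In null mice it was 6.11 to 6.80 and 6.06, 6.34, 5.80, 6.15 and 5.49. The average decrease was −0.45 (SE 0.10, adjusted p = 0.00214), with changes of −0.48 (adjusted p = 0.0254) and −0.42 (adjusted p = 0.0619) in wild-type and null mice. The wild-type call was lost with array medians subtracted (adjusted p = 0.0596) and without wild-type 5 °C replicate 2 (0.067), 4 (0.0596) or 5 (0.0551) or wild-type 28 °C replicate 1 (0.0657) or 4 (0.0542). Pde9a, a cyclic GMP enzyme of high affinity, had an average decrease of −0.33 (SE 0.08, adjusted p = 0.00536). Its means fell from 5.61 ± 0.19 (SD, n = 6) to 5.34 ± 0.19 (n = 5) in wild-type mice, which did not pass alone (adjusted p = 0.134), and from 5.68 ± 0.21 to 5.29 ± 0.21 in null mice (adjusted p = 0.0337). The null call was lost with array medians subtracted (0.0741) or quantile normalization (0.0717) and with only the null groups fitted (0.0697). It was also lost with the replicate number as a block (0.0501) and with the muscle and lymphocyte covariates (0.0638). It was lost too without null 5 °C replicate 1 (adjusted p = 0.108), 3 (0.0765), 4 (0.0598) or 5 (0.0562), or null 28 °C replicate 1 (0.0615), 2 (0.0607), 3 (0.0571) or 4 (0.0851).

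Pde5a, the cyclic GMP enzyme inhibited by sildenafil, fell in null mice, from 5.71 to 6.19 at 28 °C (median 5.97) to 5.30, 5.39, 5.62, 5.14 and 5.57 at 5 °C, with no overlap (−0.55, SE 0.12, adjusted p = 0.00214). In wild-type mice it was 5.58 to 6.05 at 28 °C and 5.63, 5.73, 6.17, 5.67 and 5.72 at 5 °C, and the change was −0.10 (SE 0.12, adjusted p = 0.619), or −0.20 without replicate 3 at 5 °C (6.17). Pde7a, a cyclic AMP enzyme known from lymphocytes, passed in the average alone (−0.28, SE 0.08, adjusted p = 0.0143). With the lymphocyte and muscle marker means as covariates its change was −0.18 (adjusted p = 0.0511). A dimmer Pde7a probe set gave an average of −0.15. The other 17 genes, which include Pde4dip, an interacting protein and no enzyme, did not pass in any cold comparison, with average changes from −0.15 to 0.18. The smallest p among them were those of Pde3a (−0.15), Pde7b (0.12) and Pde4d (0.12).

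Kinase A is a tetramer of catalytic and regulatory subunits, and 1 of each kind rose, both in wild-type and in null mice. In the average, 2 of 6 subunits passed the test (33.3%, against 24.8% of all genes). Prkar2b encodes the type II beta regulatory subunit, the main regulatory subunit of adipose tissue. Its signal in wild-type mice was 10.03 to 10.29 at 28 °C (median 10.20) and 10.73, 10.68, 10.87, 10.88 and 10.74 at 5 °C. In null mice it was 10.08 to 10.63 at 28 °C (median 10.32) and 10.81, 10.99, 10.80, 10.81 and 10.99 at 5 °C. The increases were 0.58 (SE 0.08, 1.49-fold, adjusted p = 2.93e-05) and 0.55 (SE 0.08, 1.47-fold, adjusted p = 5.91e-05), with no overlap in either genotype. Prkaca, the catalytic alpha subunit whose promoter window is shown above, was 9.78 to 9.97 at 28 °C (median 9.86) and 10.34, 10.23, 10.32, 10.39 and 10.56 at 5 °C in wild-type mice. In null mice it was 9.51 to 10.02 at 28 °C (median 9.79) and 10.42, 10.19, 10.37, 10.42 and 10.31 at 5 °C. The increases were 0.50 (SE 0.08, 1.41-fold, adjusted p = 0.000176) and 0.55 (SE 0.08, 1.47-fold, adjusted p = 6.56e-05), again without overlap. A second Prkaca probe set gave changes of 0.54 and 0.34.

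The other 4 subunits did not pass the test. Prkacb, the catalytic beta subunit, was 7.57 ± 0.17 and 7.42 ± 0.14 in wild-type mice at 28 and 5 °C and 7.53 ± 0.12 and 7.47 ± 0.10 in null mice, an average change of −0.11 (95% interval −0.23 to 0.02). Prkar1a, the regulatory subunit whose window holds the full response element, was 6.64 ± 0.07 and 6.64 ± 0.09 in wild-type and 6.56 ± 0.07 and 6.64 ± 0.12 in null mice, an average change of 0.03 (−0.06 to 0.13). Prkar1b was 4.73 ± 0.18 and 4.64 ± 0.22, then 4.83 ± 0.25 and 4.63 ± 0.21, an average change of −0.15 (−0.33 to 0.04). Prkar2a was 7.18 ± 0.19 and 7.29 ± 0.34, then 7.20 ± 0.20 and 7.28 ± 0.23, an average change of 0.10 (−0.11 to 0.30). The upper bounds of Prkacb (0.02), Prkar1a (0.13), Prkar1b (0.04) and Prkar2a (0.30) lay below the lower bounds of Prkar2b (0.45) and Prkaca (0.40). The subunits were sorted by the same test, so this gap is no separate evidence.

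Among the 23 Rgs genes, 2 rose and 3 fell in the average (21.7% called, against 24.8% of all genes). Rgs7, of the R7 family that acts on inhibitory and Go-class alpha subunits, was 6.26 to 6.76 in wild-type mice at 28 °C (median 6.52) and 7.76, 7.59, 7.65, 7.66 and 7.83 at 5 °C. In null mice it was 6.22 to 6.68 at 28 °C (median 6.32) and 7.88, 7.45, 7.53, 7.65 and 7.66 at 5 °C. The gap between the groups exceeded the range within any of them, and the increases were 1.21 (SE 0.11, 2.32-fold, adjusted p = 4.31e-08) and 1.23 (SE 0.11, 2.35-fold, adjusted p = 4.54e-08). Rgs2, which acts mainly on Gq, had an average change of 0.36 (SE 0.11, adjusted p = 0.0164). Its cold arrays were 8.23, 7.82, 7.94, 7.80 and 7.80 in wild-type mice, against 7.31 to 8.03 at 28 °C, and 8.20, 7.78, 7.59, 8.41 and 7.59 in null mice, against 7.03 to 7.71. The null change was 0.47 (adjusted p = 0.048). It did not pass with quantile normalization (0.0533), the mean of both probe sets (0.111) or array weights (0.0618). Nor did it pass with only the null groups fitted (0.111), the replicate number as a block (0.0721) or the muscle and lymphocyte covariates (0.0729). A dimmer Rgs2 probe set gave an average of 0.10, and the mean of both gave 0.23 (adjusted p = 0.0575). The null call held on leaving out null 5 °C replicate 3 or 5, null 28 °C replicate 2 or 5, wild-type 5 °C replicate 1 or wild-type 28 °C replicate 1 or 4. The other 15 omissions gave adjusted p up to 0.166.

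Rgs18 and Rgs10, both known from blood and immune cells, fell. Rgs18 was 5.16 to 5.54 in wild-type mice at 28 °C (median 5.42) and 4.84, 4.76, 4.92, 4.65 and 4.63 at 5 °C, with no overlap (−0.65, SE 0.10, 1.57-fold, adjusted p = 0.000114). In null mice it was 5.07 to 5.47 at 28 °C and 4.61, 4.72, 5.15, 5.04 and 5.06 at 5 °C, with 1 cold array inside the thermoneutral range (−0.34, SE 0.10, adjusted p = 0.0315). The null call was lost with array medians subtracted (adjusted p = 0.0795), quantile normalization (0.101), only the null groups fitted (0.0947) or the replicate number as a block (0.0584). It was also lost without null 5 °C replicate 1 (0.114) or 2 (0.0929) or null 28 °C replicate 2 (0.0789) or 3 (0.0719). Rgs10 was 5.81 to 6.49 in wild-type mice at 28 °C and 5.54, 5.47, 5.65, 5.62 and 5.57 at 5 °C, without overlap (−0.53, SE 0.13, adjusted p = 0.00583). In null mice it was 5.86 to 6.34 and 5.99, 5.27, 5.90, 5.70 and 5.83, and the change of −0.38 did not pass alone (adjusted p = 0.0583). The average change of Rgs10 was −0.45 (adjusted p = 0.000654).

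Rgs5, an Rgs protein of pericytes, had a small average decrease of −0.20 (SE 0.06, adjusted p = 0.0174), which did not pass with array medians subtracted (adjusted p = 0.0942) or with the mean of its probe sets (0.0522) or the most variable one (0.147). Of 10 pericyte and smooth muscle markers, 4 fell and 2 rose in the average, and their part in the Rgs5 result was not tested. Rgs20 passed in null mice alone (−0.48, SE 0.14, adjusted p = 0.0291). Its signal, 1.87 to 3.16 over all arrays, lay mostly below the arrays' lower quartile. The call was lost with array medians subtracted (adjusted p = 0.0544), with only the null groups fitted (0.0757) and with the replicate number as a block (0.0838). It was also lost without null 5 °C replicate 3 (0.0717) or 4 (0.0798) or null 28 °C replicate 2 (0.0585) or 6 (0.0589). The other 17 Rgs genes did not pass in any cold comparison, with average changes from −0.26 (Rgs7bp, a binding protein of the R7 family) to 0.19 (Rgs9). Rgs3 came nearest to the threshold (−0.15, adjusted p = 0.0597).

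**Figure D3:**
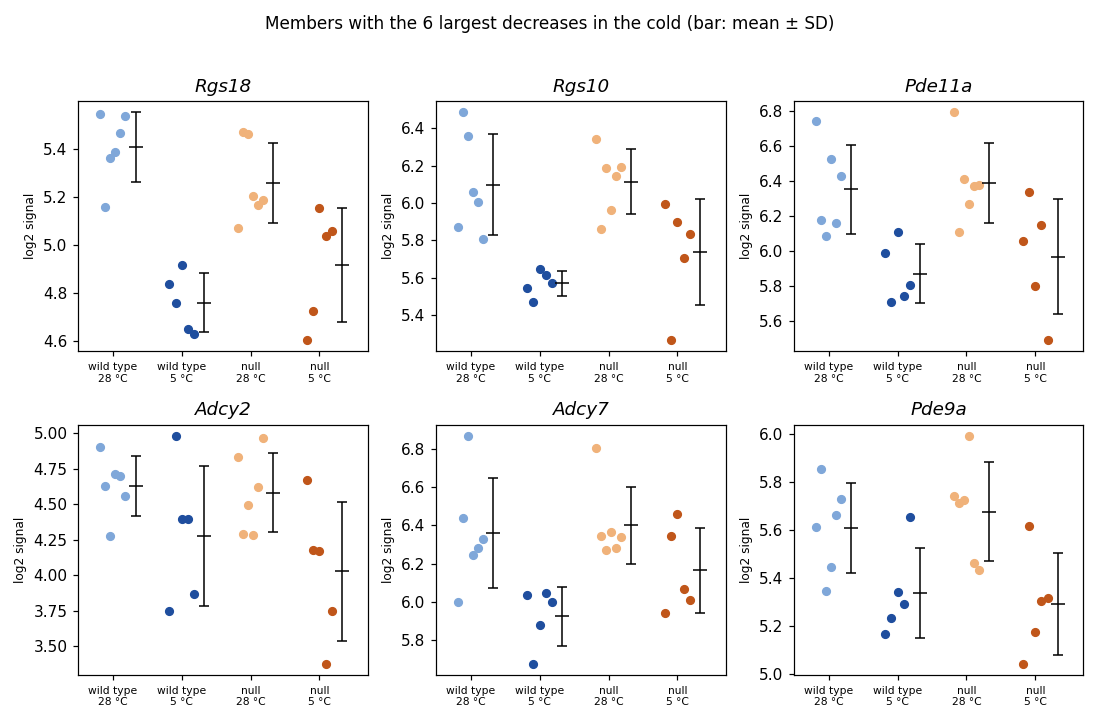
Log2 signal of the 6 genes with the largest average decreases, 1 point per mouse in the 4 groups, with mean ± SD beside the points. The wild-type cold arrays of Rgs18 (4.63 to 4.92) and Rgs10 (5.47 to 5.65) lie below all wild-type 28 °C arrays, and the other panels overlap.

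Several of the falling genes are known from immune cells, and macrophage markers fell in the same arrays. Their list held 10 symbols, with Adgre1 and Emr1 naming the same gene, and 9 were measured. All 9 fell in each genotype. Their summed log2 level was 12.3 to 12.6 in both genotypes at 28 °C. At 5 °C it was 11.6 to 12.0 in wild-type mice and 11.7 to 12.0 in null mice. All 9 preadipocyte, fibroblast and matrix markers fell in each genotype too, with a summed level of 13.4 to 13.7 in wild-type and 13.4 to 13.6 in null mice at 28 °C, and of 12.8 to 13.0 in wild-type and 12.9 to 13.0 in null mice at 5 °C. Their median change in the average was −0.56, and that of the macrophage markers −0.65. Of 6 mast cell markers, 4 fell and 1 (Kit) rose in the average, with 4 lower in wild-type and 0 in null mice. Their summed level was 9.29 to 10.0 in wild-type and 8.95 to 9.46 in null mice at 28 °C, and 8.6 to 9.12 and 8.68 to 9.16 at 5 °C. Of 5 nerve and Schwann cell markers measured, 2 fell and 1 (S100b) rose in the average, and the summed level of 9.28 to 9.62 in wild-type and 9.38 to 9.45 in null mice at 28 °C was 9.04 to 9.35 and 9.07 to 9.35 at 5 °C. The part of these cell types in the decreases of Rgs18, Rgs10, Adcy7, Pde7a and the other falling members was not tested. Of 11 measured B and T cell markers, 0 passed the adjusted test in the average, and the array means ran from 3.99 to 8.12 with overlap of all groups. With the lymphocyte and muscle means as covariates, the average changes were −0.53 for Rgs18 (adjusted p = 2.62e-05), −0.41 for Rgs10 (0.0035) and −0.25 for Adcy7 (0.0138). Beside the increases, all 6 markers of brown and beige adipocytes rose in each genotype, from a summed level of 8.98 to 9.89 to 13.4 to 13.7 in wild-type mice and from 8.85 to 10.1 to 13.2 to 13.7 in null mice. Their part in the increases of Adcy10, Rgs7, Pde4a, Prkar2b, Prkaca and Pde12 was not tested.

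The cold response was then compared between genotypes, which asks whether the size of the change differs without PPARα. Of 66 members, 0 passed limma's test of the difference (smallest adjusted p = 0.963), as did 0% of all genes. At an unadjusted p under 0.05 there were 7 members (10.6%), against 5.13% of all genes (1137). These were Rgs20 (−0.56, null minus wild type), Pde5a (−0.44), Rgs21 (−0.38), Pde6c (−0.36), Pde7b (0.26), Pde1a (0.34) and Pde1c (0.51), of which all but Pde5a, Pde7b and Pde1a lay in the dimmest 50%. For Pde5a the interval of the difference was −0.78 to −0.10. For the shared increases the intervals were −0.29 to 0.33 for Rgs7, −0.31 to 0.29 for Pde4a, −0.27 to 0.22 for Prkar2b, −0.19 to 0.30 for Prkaca and −0.18 to 0.30 for Pde12. The interval for Adcy10 was wider, −1.10 to 0.09. Over the set, the 95% interval stayed within 1 log2 unit for 62 members and within 0.5 for 36. An interval that includes 0 does not show that the responses were alike. Calls made in 1 genotype alone, such as those of Adra1b, Pde8a, Pde3b and Pde1c, are not shown to differ between genotypes.

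**Figure D4:**
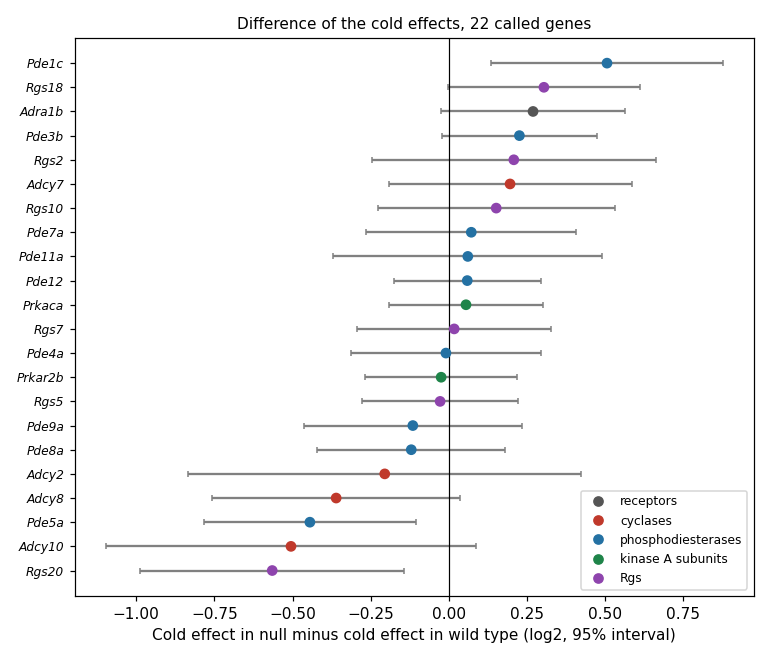
Difference of the cold effects (null minus wild type, log2) with its 95% interval for the 22 genes that passed in at least 1 cold comparison, coloured by family. Intervals of 3 genes, Pde1c, Pde5a and Rgs20, exclude 0 before adjustment, and 0 genes passed after it.

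At a fixed temperature, 0 of 66 members differed between genotypes by the adjusted test, at 28 °C (0.194% of all genes, smallest adjusted p of a member 0.382) or at 5 °C (0.149% of all genes, smallest adjusted p 0.436). At an unadjusted p under 0.05 there were 9 members at 28 °C (13.6%, against 6.74% of all genes) and 7 at 5 °C (10.6%, against 6.65%). Adcy5 and Adcy4 were among them at both temperatures, which use different mice. Adcy5 means were 7.66 ± 0.19 for wild-type and 8.12 ± 0.25 for null mice at 28 °C (SD, n = 6 each), and 7.88 ± 0.34 and 8.31 ± 0.25 at 5 °C (n = 5 each). The differences were 0.46 (95% interval 0.16 to 0.76, adjusted p = 0.402) and 0.43 (0.11 to 0.76, adjusted p = 0.574), and the groups overlapped. Adcy4 differed by 0.23 at each temperature (adjusted p = 0.533 and 0.615). Groups did not overlap between genotypes for 0 members at 28 °C (0.555% of all genes) and for 1 at 5 °C (1.22%), Pde5a, which was lower in null mice (−0.38, 95% interval −0.63 to −0.13, adjusted p = 0.436).

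Other genes of the pathway, taken from lists of their roles, are given by their change in the average. Of 12 G protein subunits, 2 rose and 4 fell (all genes: 11.7% higher, 13.1% lower). Gnao1, the Go alpha subunit on which R7 proteins act, rose by 1.07 (SE 0.08), from 6.26 ± 0.20 to 7.36 ± 0.16 in wild-type and from 6.12 ± 0.15 to 7.16 ± 0.22 in null mice. The inhibitory alpha subunits Gnai1 (−0.37, SE 0.08) and Gnai2 (−0.24, SE 0.05) fell. Of 6 receptor kinases and arrestins, 1 rose and 2 fell. Grk3, a kinase that desensitizes adrenergic receptors, rose by 1.29 (SE 0.11), from 5.73 ± 0.13 to 7.12 ± 0.35 in wild-type and from 5.66 ± 0.17 to 6.85 ± 0.35 in null mice, and the arrestins Arrb1 (−0.21) and Arrb2 (−0.32) fell. Among 13 kinase A anchors and inhibitors, Akap1, which tethers the kinase to the outer mitochondrial membrane, rose (0.70, SE 0.08), and Akap12 (−0.54, SE 0.07) and Akap11 (−0.15, SE 0.04) fell.

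Of 16 cyclic AMP effectors and CREB-related factors, 1 rose and 4 fell, with Creb3l1 (−0.67), Creb3l2 (−0.42) and the CREB coactivator Crtc3 (−0.38) showing the smallest p. Of 14 cyclic AMP response genes, 4 rose and 0 fell. These were Ucp1 (6.98, SE 0.17), Elovl3 (6.82, SE 0.16), Dio2 (2.20, SE 0.16), which makes active thyroid hormone, and Ppargc1a (1.23, SE 0.08), a coactivator of mitochondrial genes. The immediate early gene Fos of the same list was at −0.44 (adjusted p = 0.054), and the list's median was 0.11. Ucp1, Elovl3 and Dio2 of this list are also among the 6 brown and beige adipocyte markers given above, so both counts share them. Of 6 lipolytic proteins, 4 rose and 0 fell, with Abhd5, the activator of adipose triglyceride lipase, at 0.37 (SE 0.08), its inhibitor G0s2 at 0.53 (SE 0.13) and Mgll, the monoglyceride lipase, at 0.24 (SE 0.05). Among 19 other receptors of fat cells that act through cyclic AMP or inhibitory G proteins, 4 rose and 2 fell. Ffar4, a fatty acid receptor, rose by 0.76 (SE 0.06), Ptger3, an inhibitory prostaglandin E2 receptor, rose by 0.47 (SE 0.13), and Ptger4, a stimulatory one, fell by 0.47 (SE 0.11). None of 9 genes of catecholamine synthesis, transport and breakdown passed, 7 of them in the dimmest 50%, and the smallest p was that of Th (0.27, adjusted p = 0.065), the enzyme that begins the synthesis.

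**Figure D5:**
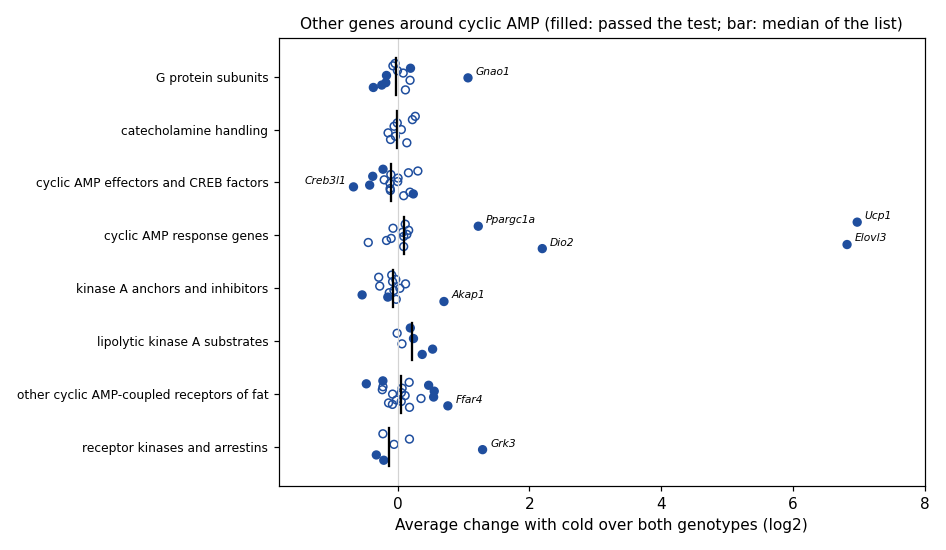
Average change with cold over both genotypes (log2, x axis) of other pathway genes, 1 point per gene in 8 lists, filled where the change passed the test, with a bar at each list's median. Ucp1, Elovl3 and Dio2 lie beyond 2, while the list medians lie between −0.13 and 0.22.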

How the data were processed

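Total RNA (100 ng per array, integrity number above 8) from inguinal fat of 22 mice was measured on whole-transcript arrays. The authors deposited log2 values for 41345 probe sets, made with RMA per the submitters' processing notes (version not given in the sources used here), and these were used with no further scaling. RMA normalizes arrays to each other, so an overall shift in RNA cannot be seen. A platform annotation gave 23521 probe sets 1 gene symbol, 1814 several and 16010 none. Probe sets with 1 symbol were kept, the brightest per gene, which left 22180 genes with no filter on dim ones. Symbols of all 66 members matched RefSeq (GRCm38.p6) by Entrez ID. A probe set shared by a cyclase and another gene was left out.

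The 4 groups were fitted together with limma 3.58.1 in R 4.3.3 (18 residual degrees of freedom, 3.35 prior), with 6 comparisons, after the fit was tested on simulated data. Calls were made where p, adjusted by Benjamini-Hochberg over all 22180 genes, was under 0.05. Errors of changes are standard errors, and intervals are 95% and unadjusted. The labels give 1 mouse per array and do not say whether mice shared cages, so p-values measure the spread between these mice.

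The members, the pathway lists and the marker lists were chosen with earlier results of these data known, so counts over them are descriptions. Members were named by this rule: all receptors and kinase A subunits, every called cyclase, phosphodiesterase and Rgs gene, and up to 3 uncalled genes per family with the smallest p in the average. Members named for an unadjusted p in the genotype comparisons were chosen after their values were seen. Of each pathway list, the 3 genes with the smallest p were named, and Ucp1, Dio2 and Fos besides. Summed marker levels are log2 of the summed linear signals. Markers of endothelium and epithelium were also listed: of 7 endothelial markers 1 rose and 2 fell, and the 7 epithelial markers measured were all in the dimmest 50% of genes. Alternatives changed the scaling, the dim-gene filter, the probe set, the variance model, the array weights, the arrays used, the replicate block, the threshold and the covariates. Tables were handled with pandas 2.3.3 and figures with matplotlib 3.10.9.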

Additional observations from a re-analysis of the deposited data

Results flagged for a closer look

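Single arrays stood apart from the rest of their group for 5 of 108 groups of arrays tested (27 genes in 4 groups each), and chance alone flags about 1 group in 20. For Adcy10, null 5 °C replicate 2 was low at 3.74, where the next array was at 4.58. For Adcy7, null 28 °C replicate 1 was high at 6.80 (next 6.37), and this array also had the highest mean of the B and T cell markers (8.12). For Pde4a, null 5 °C replicate 1 was high at 6.43 (next 6.05). For Pde5a, wild-type 5 °C replicate 3 was high at 6.17 (next 5.73). For Prkar2a, null 5 °C replicate 1 was high at 7.69 (next 7.23). Without its array that stood apart, the change in null mice was 1.38 for Adcy10 (1.20 with it) and 0.57 for Pde4a (0.66 with it), both still called, and the average change of Adcy7 was −0.29 (−0.33 with it), also still called. The null change of Adcy7, which was not called, was −0.16 without the array and −0.24 with it. The wild-type change of Pde5a, not called either, was −0.20 without the array and −0.10 with it. The null change of Prkar2a was −0.03 without and 0.08 with the array, and was not called.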

How the results depend on the processing

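Of 45 called changes of members, 30 held under every alternative, 15 were lost under at least 1 and 0 changed direction. The 15 were lost at an unadjusted p under 0.001, 9 of them also on leaving out a single array. The counts of members called stayed within 1.5 times of those reported except in null mice, where 14 became 8 with only the groups compared in the fit, 7 at an unadjusted p under 0.001, and 9 with the replicate number as a block. Over all genes the null count went from 2930 to 2254, 1799 and 2683 in these settings. Leaving out each array in turn gave 10 to 14 in wild-type mice, 10 to 15 in null mice, 18 to 21 in the average and 0 in the difference and in both genotype comparisons. Fitting only the groups compared could not be done for the average and the difference, which use all 4 groups.

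The labels do not say whether replicate numbers pair mice. Deviations of arrays with the same number correlated at −0.25 to 0.35 (31 pairs, median −0.041). Those of arrays with other numbers correlated at −0.33 to 0.44 (150 pairs, median 0.003). Of 22 arrays, 4 correlated best with an array of their own number. Weak correlations over all genes cannot exclude a pairing. With the replicate block 13 members passed in wild-type mice and 19 in the average, and 6 of the 45 changes were lost. Those lost were Adcy2 in the average and Adcy8, Pde9a, Rgs18, Rgs2 and Rgs20 in null mice. Over all genes, counts fell at an unadjusted p under 0.001 from 3693 to 2249 in wild-type mice, from 2930 to 1799 in null mice and from 5499 to 3417 in the average, and rose from 43 to 86 and from 33 to 91 between genotypes at 28 and 5 °C and from 0 to 24 in the difference. With only the groups compared, 19 genes differed between genotypes at 5 °C. Arrays have no read depth. The 27 members in the dimmest 50% of genes, among them Adcy10, Adra1b, Adcy2, Adcy8, Pde1c and Rgs20, have signals in which background may hide or shrink a change.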
